A study of Mus musculus with 16 samples.

Results

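The 10 DNA replication genes described here are Mcm2, Mcm3, Mcm4, Mcm5, Mcm6 and Mcm7, the ribonucleotide reductase genes Rrm1 and Rrm2, the thymidylate synthase gene Tyms and the sliding clamp gene Pcna. They were chosen by name, and their probes were found by matching the RefSeq entry of each probe to a mouse gene symbol. The arrays held 15 probes of these genes among 56605 probes, with 3 for Mcm3, 2 each for Mcm6, Mcm7 and Tyms, and 1 for each of the other 6 genes. All 10 genes were among the 17436 genes tested.

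The RNA came from the cerebral cortex of male mice on a C57BL/6 background, aged 28 to 42 weeks, with 1 Agilent array per mouse and 4 mice in each of 4 groups. Wild-type littermates and mice labelled Neil1 knockout (Neil1-/-, a line that is stated to lack a DNA glycosylase of base excision repair) were each split into a sham group and a group given 6 Gy of whole-body gamma radiation at 0.74 Gy/min. Every cortex was taken 20 h after the exposure. Every mouse, sham mice included, also received BrdU at 100 mg/kg before the exposure and 2 h after it, per the labels' protocols. BrdU is a thymidine analogue that enters DNA as it is copied. The question addressed here is whether the transcripts of the replication machinery differed with irradiation or with the Neil1 label in adult cortex.

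Mcm2 to Mcm7 form a ring that is loaded on DNA at replication origins in G1 and becomes the core of the helicase that unwinds DNA in S phase. Ribonucleotide reductase (Rrm1 and Rrm2) makes deoxyribonucleotides, thymidylate synthase makes the thymidine nucleotide, and Pcna encircles DNA and tethers the polymerases. In dividing cells, E2F factors drive the transcription of these genes toward S phase. Most cells of the adult cortex are neurons and glia that no longer divide. Pcna and several Mcm proteins also serve in DNA repair or are present outside S phase, so their transcripts do not mark cycling cells alone.

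The upstream sequence of these genes is shown because matches to an E2F motif are what several of them share. RefSeq promoter windows of 300 bases, from 250 before to 50 after the start site (build GRCm38.p6), matched 9 of the 10 genes. The motif was searched on both strands as TTTCCCGC, TTTCGCGC, TTTGCCGC or TTTGGCGC. Of the 9 genes, 4 had a match (44.4%), namely Mcm3, Mcm5, Mcm6 and Mcm7, against 2.26% of all 32851 windows and 2.60% of the 27025 genes with a window. The stretches that hold upstream matches of 3 of them follow 5′ to 3′ on the gene's strand, with the matched bases in capitals. They are chr8:75109336-75109387 on the plus strand for Mcm5, chr1:128359725-128359835 on the minus strand for Mcm6 and chr5:138172021-138172068 on the minus strand for Mcm7.
Mcm5: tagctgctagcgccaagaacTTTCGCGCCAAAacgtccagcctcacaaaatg
Mcm6: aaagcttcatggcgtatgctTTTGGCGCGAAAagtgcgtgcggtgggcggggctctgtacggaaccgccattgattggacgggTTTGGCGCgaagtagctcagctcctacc
Mcm7: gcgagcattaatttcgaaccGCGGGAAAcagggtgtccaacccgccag
In Mcm5 and in the first match of Mcm6, 2 motif matches on opposite strands overlap, so 1 run of capitals holds both.

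The letters CCAAT, searched on both strands, were in the windows of 8 of the 9 genes (88.9%), against 37.4% of all windows and 41.1% of all genes with a window. The letters TTTGAA, the core of the CHR element found in genes of the later cell cycle, were in 1 of the 9 (11.1%), that of Mcm2. They were in 17.9% of all windows and 20.2% of all genes with a window. Among 18 genes of a mitosis list with a window, 13 held TTTGAA (72.2%) and 1 held the E2F letters (5.56%). Among 77 other replication genes these counts were 14 (18.2%) and 20 (26.0%). A match describes letters only.

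All expression levels below are differences, in log2 units, between the processed signal of a spot and the 75th percentile of its array. A level of 0 is the signal at that percentile. The wild-type arrays were all on slide 1 and the labelled knockout arrays all on slide 2, with sham mice in row 1 and irradiated mice in row 2 of each slide. Genotype and slide, and treatment and row, therefore cannot be told apart. The 75th percentile signal was 1976 to 2725 on slide 1 and 1075 to 2240 on slide 2. The single Neil1 probe read -3.65 ± 0.28 in wild-type sham and -2.38 ± 0.19 in labelled knockout sham (SD, n = 4), with no overlap and with more signal in the mice labelled knockout. Whether this probe lies in the deleted stretch is not known here, so it does not check the label. All 10 cortical neuron markers were well above background on all 16 arrays. In whole tissue, fewer cells of a type and less RNA per cell cannot be told apart.

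After 6 Gy, none of the 10 replication genes passed the test in either genotype. In limma with Benjamini-Hochberg adjustment over all genes, 0 of 10 were called in wild type, where 0.0746% of 17436 genes were called, and 0 of 10 in the labelled knockout, where 0.120% were. With the irradiation effect averaged over genotypes, 0 of 10 were called against 0.304% of all genes. None had an unadjusted limma p below 0.05 in these 3 comparisons, where 1.97%, 4.63% and 5% of all genes did. The irradiated and sham arrays overlapped for each of the 10 genes in both genotypes, while 1.97% and 2.19% of all genes showed no overlap.

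The intervals were narrow. Averaged over genotypes, the 95% intervals of all 10 genes lay within a 1.5-fold change in either direction, from 0.802-fold at the low end for Rrm2 to 1.42-fold at the high end for Mcm6. Within wild type, and within the labelled knockout, 9 of the 10 intervals lay within 1.5-fold, and the exception in both was Mcm6. The median log2 difference of the 10 genes was -0.02 averaged over genotypes, against 0.00 for all genes tested, and 8 of the 10 estimates were below 0, against 48.3% of all genes. Under normexp background correction 4 of the 10 were below 0.

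**Figure D1:**
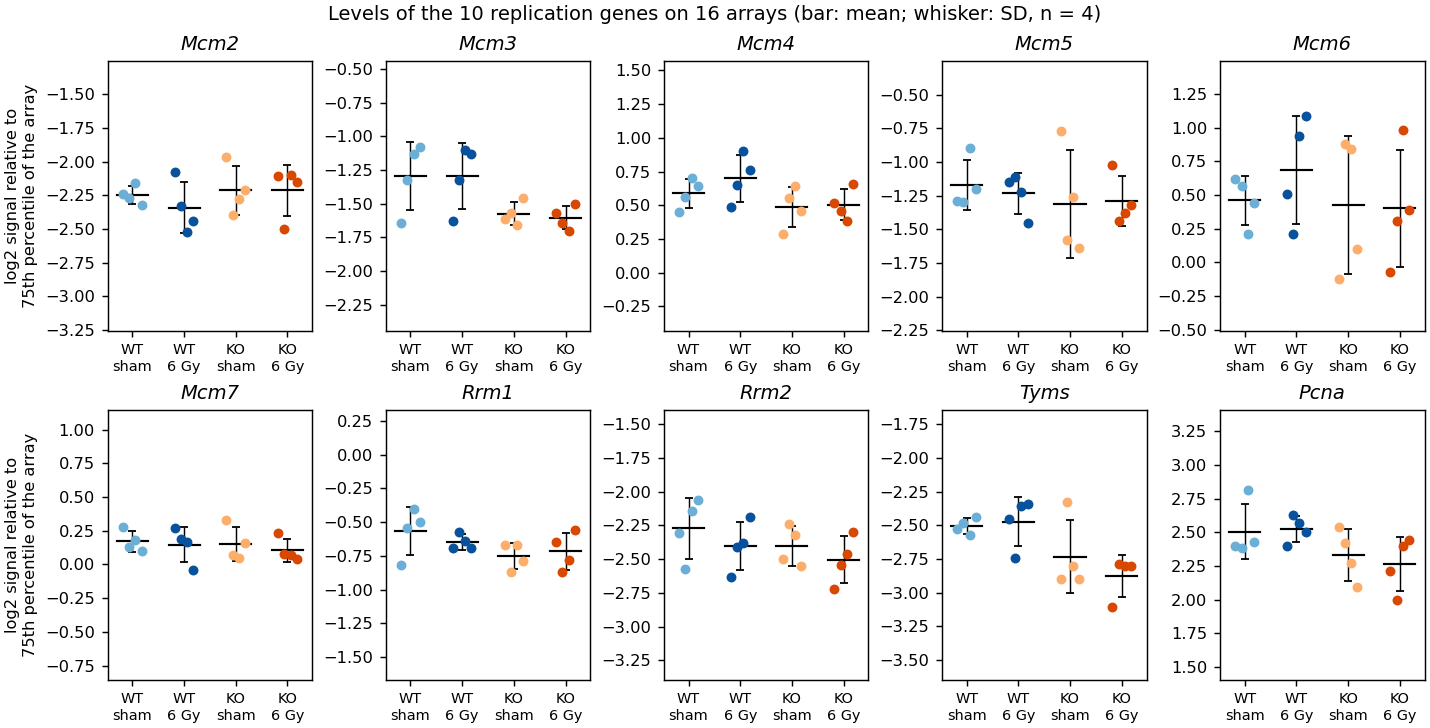
Levels of the 10 replication genes (y axis, log2 units above or below the 75th percentile of the array, equal span of 2 in each panel) in wild-type (WT) and labelled knockout (KO) mice after sham or 6 Gy. Each point is 1 mouse, the bar is the mean and the whisker the SD (n = 4). Sham and irradiated arrays overlap in every panel, and Mcm6 is the most scattered.

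Within the helicase ring, Mcm7 varied least. Its main probe read 0.28, 0.13, 0.18 and 0.10 in the wild-type sham mice and 0.27, 0.19, 0.17 and -0.04 after irradiation of wild-type mice. It read 0.33, 0.07, 0.05 and 0.16 in labelled knockout sham and 0.23, 0.08, 0.07 and 0.04 after irradiation. The 4 groups covered nearly the same range. The averaged difference was -0.03 ± 0.07 on the log2 scale (SE), with an interval of 0.885 to 1.08-fold. The SD within groups was 0.109, and 4.67% of all genes had a smaller one.

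Mcm6 varied most. It read 0.62, 0.57, 0.21 and 0.44 in the wild-type sham mice and 0.51, 0.21, 0.94 and 1.09 after irradiation of wild-type mice. In the labelled knockout it read -0.12, 0.88, 0.84 and 0.10 in sham and -0.07, 0.31, 0.98 and 0.39 after irradiation. The 4 groups overlapped, wild-type sham mice were the least spread, and the 16 arrays spanned 1.21 log2 units. The difference was 0.23 ± 0.27 in wild type, an interval of 0.787 to 1.74-fold, and -0.02 ± 0.27 in the labelled knockout, 0.662 to 1.46-fold. Of all genes, 76.8% had a smaller SD within groups than its 0.401.

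The other 4 helicase genes lay between these. Mcm3, another subunit of the ring, read -1.64, -1.32, -1.13 and -1.08 in the wild-type sham mice and -1.63, -1.32, -1.10 and -1.13 after irradiation of wild-type mice. Both groups of 4 covered nearly the same values, and the averaged difference was -0.01 ± 0.10. Mcm2, whose product also binds histones at the fork, ranged from -2.52 to -1.97 over the 16 arrays, with an averaged difference of -0.05 ± 0.09. Mcm4, one of the subunits phosphorylated by the Dbf4-dependent kinase when origins fire, ranged from 0.29 to 0.90 and gave 0.07 ± 0.08. Mcm5, which with Mcm2 forms the gate through which the ring opens, ranged from -1.64 to -0.77 and gave -0.02 ± 0.12. Over the 6 helicase genes the median averaged difference was -0.02, with 4 estimates below 0.

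Among the nucleotide genes, Rrm2, the radical-bearing subunit of ribonucleotide reductase whose protein accumulates in S phase, had the lowest averaged estimate of the 10 genes. It read -2.31, -2.57, -2.14 and -2.06 in the wild-type sham mice and -2.63, -2.41, -2.38 and -2.19 after irradiation of wild-type mice. In the labelled knockout it read -2.50, -2.24, -2.32 and -2.55 in sham and -2.72, -2.54, -2.46 and -2.30 after irradiation. Sham and irradiated arrays overlapped in both genotypes, and the averaged difference of -0.11 ± 0.09 corresponded to 0.924-fold with an interval of 0.802 to 1.06-fold. Its unadjusted limma p was 0.246. Rrm1, the larger subunit, which carries the catalytic site, ranged from -0.87 to -0.40 over the 16 arrays and gave -0.02 ± 0.07. Tyms gave -0.06 ± 0.10 averaged over genotypes with its main probe and -0.18 ± 0.08 with its other probe (limma over all kept probes, unadjusted p = 0.0375, adjusted p = 0.840).

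Pcna read 2.40, 2.38, 2.81 and 2.43 in the wild-type sham mice and 2.40, 2.63, 2.57 and 2.50 after irradiation of wild-type mice. In the labelled knockout it read 2.54, 2.42, 2.27 and 2.09 in sham and 2.21, 2.00, 2.40 and 2.44 after irradiation. The sham and irradiated values were interspersed, with an averaged difference of -0.02 ± 0.09 and an interval of 0.858 to 1.13-fold. Pcna is also a known p53 target. Cdkn1a, the p53-induced inhibitor of cyclin-dependent kinases, whose product binds Pcna, rose on the same arrays. Its level was -0.97 ± 0.24 in the wild-type sham mice and 0.46 ± 0.36 after irradiation of wild-type mice, and -0.64 ± 0.31 and 0.57 ± 0.16 in the labelled knockout (SD, n = 4). The Cdkn1a difference was 1.42 ± 0.19 in wild type (SE; limma adjusted p = 0.00472), 1.21 ± 0.19 in the labelled knockout (adjusted p = 0.0223) and 1.32 ± 0.13 averaged (adjusted p = 0.000166), with no overlap between arrays in either genotype. The call in the labelled knockout was lost without any 1 of its sham replicates 2, 3 and 4 or its irradiated replicates 1 and 4 (adjusted p from 0.0587 to 0.0992), without the 2 arrays of lowest signal (0.220) and with the array median (0.0946). In the fit of 2 groups alone it was lost in the labelled knockout (0.136) and in wild type (0.145). The averaged call was kept under all 27 alternatives run. A second Cdkn1a probe was well above background on 0 of 4 sham and 4 of 4 irradiated arrays in each genotype. This probe was called higher in wild type (limma over all kept probes, adjusted p = 0.000937) and in the labelled knockout (adjusted p = 0.00267). The irradiated arrays alone were enough for this second probe to pass the filter on probes. Its calls compare them with sham values that were not well above background. The calls of this probe are therefore not read, and no size is given for it.

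**Figure D2:**
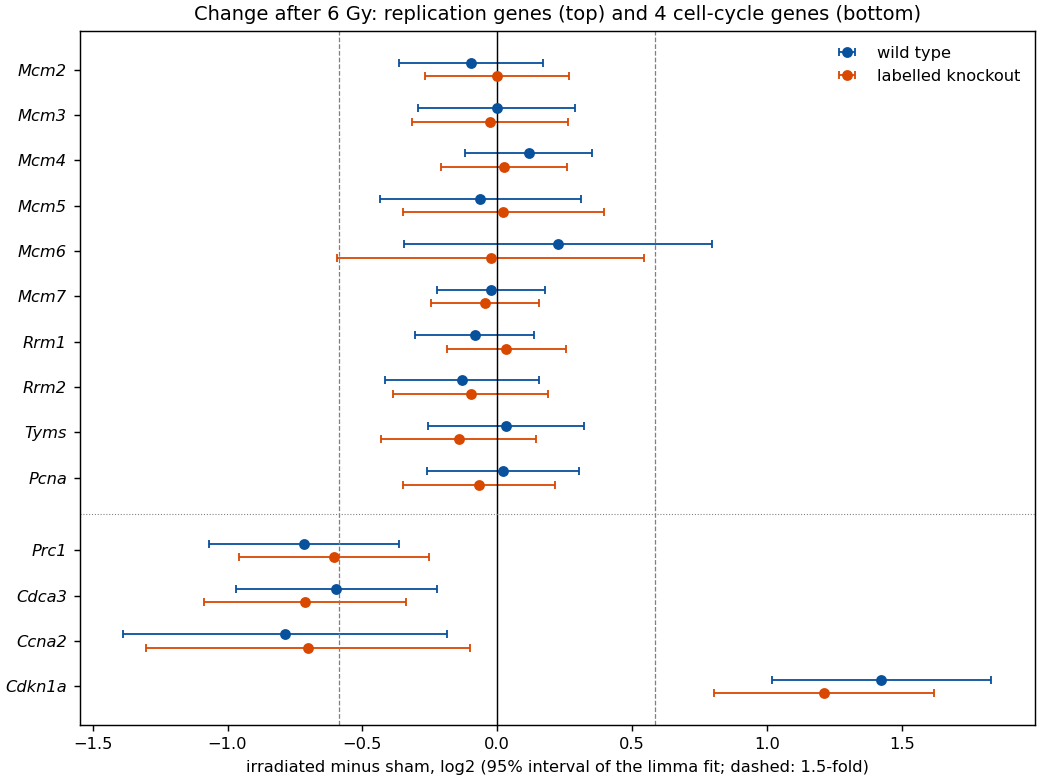
Irradiated minus sham (x axis, log2) for the 10 replication genes and, below the dotted line, Prc1, Cdca3, Ccna2 and Cdkn1a, in wild type and labelled knockout (4 arrays against 4 each). Points are limma estimates, bars their 95% intervals and dashed lines a 1.5-fold change. The intervals of the 10 genes include 0, and only that of Mcm6 crosses a dashed line.

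The rest of the replication machinery was described by 8 lists of other genes, of which 90 were tested. None of the 90 was called in wild type, in the labelled knockout or averaged over genotypes. Top2a was called in the averaged comparison under 3 alternatives given below, which are not read. In that comparison 6 of the 90 had an unadjusted limma p below 0.05, against 5% of all genes. Of the 90 averaged estimates, 47 were below 0 (52.2%), against 48.3% of all genes, and their median was -0.01. Of the 81 genes that were well above background on all 16 arrays, the estimates ran from -0.27 to 0.33. Beyond 0.5 in size lay Top2a, Rrm2b and Tk1, which were not well above background on every array.

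By step of replication, the origin licensing list, whose products recognise origins and load the Mcm ring, had 11 genes tested and a median of -0.04. Its members with the smallest p were Orc6 (-0.12 ± 0.09), Orc3 (0.07 ± 0.06) and Cdc6 (-0.10 ± 0.11), all averaged log2 differences with their SE. The origin firing list, which includes kinases and adaptors that activate the helicase, had 13 genes and a median of -0.02, with Topbp1 at -0.17 ± 0.07 (adjusted p = 0.879), Mtbp at -0.13 ± 0.10 and Dbf4 at -0.14 ± 0.11. Polymerases and primase had 12 genes and a median of -0.02, with Pola1 at -0.21 ± 0.12, Prim2 at -0.08 ± 0.06 and Pole2 at -0.26 ± 0.27. None of these passed the test.

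The clamp loaders, which open and close Pcna around DNA, had 9 genes and a median of 0.03, with Chtf18 at 0.18 ± 0.07 (adjusted p = 0.883) and Rfc1 at -0.12 ± 0.08. Dscc1 was also among the 3 smallest p, but 0 of 4 irradiated labelled knockout arrays read it well above background, so no size is given. Fork protection had 5 genes and a median of 0.01, with Wdr48 at 0.21 ± 0.12, Tipin at -0.12 ± 0.10 and Usp1 at 0.05 ± 0.13. Wdr48 and Usp1 form the deubiquitinase that acts on Pcna. The 8 genes of chromatin assembly and maintenance behind the fork had a median of -0.09, with the histone chaperones Asf1b at -0.26 ± 0.12 (adjusted p = 0.975) and Asf1a at -0.22 ± 0.12, and Uhrf1, which guides maintenance methylation, at -0.20 ± 0.12. These genes did not pass the test either.

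Among 12 genes of lagging strand synthesis and single-stranded DNA, the median was 0.01. Fen1, the flap endonuclease, stood at 0.18 ± 0.14 and the Pcna-binding factor Pclaf at -0.27 ± 0.21. Top2a, the topoisomerase that untangles DNA in dividing cells, was well above background on 4 of 4 arrays in wild-type sham (-5.18 ± 0.61) and 0 of 4 in irradiated wild type. In the labelled knockout it was well above background on 4 of 4 sham and 1 of 4 irradiated arrays. It missed the threshold in the averaged comparison (limma adjusted p = 0.0873), but was called lower with the slide column as a block (0.0217), with all kept probes averaged (0.0404) and without irradiated labelled knockout replicate 1 (0.0418). The sham arrays alone were enough for Top2a to pass the filter on probes, so these calls are not read. No size is given because its irradiated signal was mostly not well above background.

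The other genes of nucleotide supply numbered 20, with a median of 0.01. The S-phase thymidine kinase gene Tk1 stood at -0.60 ± 0.19 (adjusted p = 0.578), with 3 of 4 irradiated labelled knockout arrays well above background. Its other probe was well above background on 1 of those 4 arrays and on all arrays of the other groups, and was not called (limma adjusted p = 0.325 over all kept probes). Gart, of purine synthesis, stood at 0.24 ± 0.11 (adjusted p = 0.925) and Dctd, a deaminase of pyrimidine nucleotides, at 0.20 ± 0.12. Rrm2b, the p53-induced small subunit of ribonucleotide reductase, ranged from -8.61 to -1.21 in irradiated wild type, where 3 of 4 arrays were well above background, and from -1.46 to -1.42 in wild-type sham. Its value of -0.94 ± 0.83 therefore rests on 1 array and is not read. Rrm2b was named after its values were seen.

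**Figure D3:**
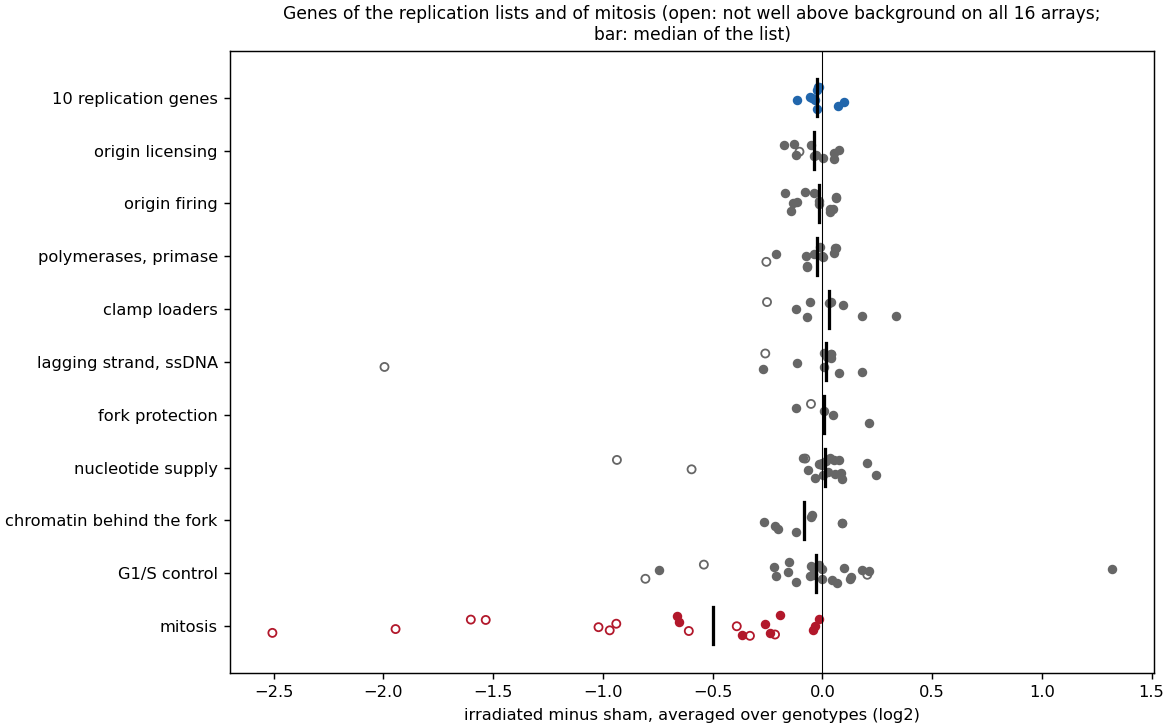
Irradiated minus sham averaged over genotypes (x axis, log2) for each tested gene of the 10 replication genes, the 8 other replication lists, G1/S control and mitosis. Open points were not well above background on all 16 arrays, so their size is uncertain; the vertical bar is the list's median. The 10 replication genes lie between -0.11 and 0.10, and all 20 mitosis genes lie below 0 on this scaling (16 under normexp).

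Genes of the cell cycle around S phase were set beside these. Of 24 tested genes of G1/S control, Cdkn1a rose and no other was called, with a median of -0.03. The S-phase cyclin gene Ccna2 (-0.74 ± 0.20, adjusted p = 0.291) and the E2F family repressor E2f8 (adjusted p = 0.0628) did not pass, and were named after their values were seen. No size is given for E2f8, which was well above background on all sham arrays, 3 of 4 irradiated wild-type arrays and 1 of 4 irradiated labelled knockout arrays. Of 20 tested mitosis genes, 20 estimates were below 0 (16 under normexp) with a median of -0.50, and 7 fell (Pbk, Cenpf, Ccnb1, Nusap1, Ube2c, Prc1 and Cdca3), as did 0.138% of all genes. In wild type 1 of the 20 fell (0.0115% of all genes), and in the labelled knockout 2 did (0.0459%). Averaged over genotypes, leaving out 1 array gave 4 to 6, quantile scaling 3, the fit without the 2 arrays of lowest signal 3 and normexp 0. Pbk, Cenpf, Ccnb1 and Nusap1 were called whichever array was left out, while Ube2c was called in 2 of these 16 fits, those without replicate 3 of the labelled knockout sham or irradiated mice (adjusted p from 0.0578 to 0.127 in the others). None of these genes, Ube2c included, was well above background on all 16 arrays. The filter needs only 4 such arrays, so a gene that fell could pass it through sham arrays alone. Being called in each fit is therefore no check on dim signal.

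Only 9 of the 20 mitosis genes were well above background on all 16 arrays, with a median of -0.24. Of these, Prc1, which bundles the spindle midzone, fell by 0.66 ± 0.12 (SE; limma adjusted p = 0.0234), and Cdca3, a mitotic entry factor, by 0.65 ± 0.12 (adjusted p = 0.0407). Prc1 read -3.77 ± 0.18 and -4.49 ± 0.19 in wild-type sham and irradiated arrays, and -3.81 ± 0.35 and -4.42 ± 0.18 in the labelled knockout (SD, n = 4). The Prc1 call was lost without irradiated wild-type replicate 1, 2 or 3, replicate 4 of the wild-type sham mice, labelled knockout sham replicate 3 or irradiated labelled knockout replicate 1, 2 or 4 (adjusted p from 0.0508 to 0.0701). With 1 array left out, the Cdca3 call was kept for irradiated labelled knockout replicate 4, irradiated wild-type replicate 4 and replicate 1 of the wild-type sham mice, and for the other 13 arrays its adjusted p was 0.0578 to 0.107. Under normexp Prc1 stood at -0.31 (adjusted p = 0.353) and Cdca3 at -0.24 (adjusted p = 0.570). The mitosis list was compiled with earlier results of these arrays known, so its count is not independent evidence, and the difference between it and the replication genes was not tested.

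Some marker lists of other cell types held called genes on the same arrays. Averaged over genotypes, 9 of 10 microglia markers had estimates below 0 and 2 fell, and 10 of 10 oligodendrocyte precursor markers were below 0 and 2 fell. Of 5 tested lymphocyte markers 3 were below 0 and 2 were above it, with a median of -0.06 and a highest estimate of 0.26. Of these 5, 2 fell, Cd79b at -0.74 ± 0.11 (limma adjusted p = 0.00409) and Il7r at -0.98 ± 0.13 (adjusted p = 0.00217). Of all genes, 0.138% fell. Leaving out 1 array gave 1 to 3 for microglia and 2 for each of the other lists. Under normexp 1 microglia, 1 precursor and 0 lymphocyte markers fell, and with the array median 0, 0 and 1 did. The summed linear level of the microglia markers was 49.1 to 60.6 in wild-type sham and 38.9 to 50.3 in irradiated wild type, and 42.9 to 53.1 and 35.3 to 42.1 in the labelled knockout, in multiples of the 75th percentile signal. That of the 5 lymphocyte markers was 0.212 to 0.313 and 0.209 to 0.305 in wild type, and 0.255 to 0.404 and 0.268 to 0.336 in the labelled knockout. That of the precursor markers was 39.6 to 46.0 and 39.0 to 40.3 in wild type, and 42.1 to 44.8 and 34.8 to 42.1 in the labelled knockout. The other 5 lymphocyte markers did not pass the filter on probes and were not tested, no tested marker of these lists was at 0, and their part in the values of the cell-cycle genes was not tested. Averaged over genotypes, no marker was called in the cortical neuron, astrocyte, oligodendrocyte, endothelial, neuroblast and progenitor, or red cell lists.

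By genotype label, 0 of 10 replication genes were called in sham mice, where 0.0516% of genes were, and 0 of 10 after irradiation, where 1.18% were. At an unadjusted limma p below 0.05 there were 0 of 10 in sham (7.69% of all genes) and 2 of 10 after irradiation (16.6% of all genes), namely Tyms and Mcm3. The arrays of the genotypes did not overlap for 0 of 10 genes in sham (4.82% of all genes) and for Tyms after irradiation (8.73% of all genes). In both comparisons 9 of the 10 estimates were below 0 in the labelled knockout, Mcm2 being the exception, with medians of -0.14 and -0.15. Of all genes, 54.7% were below 0 in each. Under normexp these counts of the 10 were 7 in sham and 8 after irradiation. These 2 comparisons share no array, but both set slide 2 against slide 1.

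Tyms, which makes thymidylate from deoxyuridylate, had the lowest of the 10 estimates after irradiation. Its main probe read -2.45, -2.74, -2.36 and -2.34 in irradiated wild type and -3.11, -2.79, -2.80 and -2.80 in the irradiated labelled knockout. All 4 labelled knockout arrays lay below all 4 wild-type arrays, as in 4.44% of all genes. The difference of -0.40 ± 0.13 (0.756-fold, interval 0.620 to 0.923-fold) had an unadjusted limma p of 0.00943 and an adjusted p of 0.143. It was -0.15 under normexp background correction and -0.61 when the array median replaced the 75th percentile, and uncalled in both.

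In sham mice the same probe read -2.53, -2.48, -2.57 and -2.44 in wild type and -2.90, -2.33, -2.80 and -2.90 in the labelled knockout, where 1 mouse lay above all wild-type mice. The sham difference was -0.23 ± 0.13 (adjusted p = 0.747). The other Tyms probe gave -0.31 ± 0.11 in sham and -0.32 ± 0.11 after irradiation (limma over all kept probes, adjusted p = 0.408 and adjusted p = 0.113). The test of whether the irradiation effect on Tyms differed between genotypes gave -0.18 ± 0.19 in limma, with an interval from -0.58 to 0.23. For this interaction, 0 of the 10 genes and 0 of 17436 (0%) were called, and 0 of the 10 and 1.27% of all genes had an unadjusted p below 0.05.

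The summed level of the 10 cortical neuron markers was 171 to 184 in wild-type sham, 177 to 196 in irradiated wild type, 207 to 237 in labelled knockout sham and 207 to 244 in the irradiated labelled knockout. The slides did not overlap in it. Its part in the Tyms difference was not tested.

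Mcm3 had the lowest sham estimate of the 10 genes. It read -1.61, -1.57, -1.66 and -1.46 in labelled knockout sham and -1.57, -1.64, -1.70 and -1.50 after irradiation. In each genotype comparison 1 wild-type mouse, at -1.64 in sham and -1.63 after irradiation, lay among the labelled knockout mice. The Mcm3 difference was -0.28 ± 0.14 in sham (adjusted p = 0.663) and -0.31 ± 0.14 after irradiation (limma adjusted p = 0.268). The Pcna difference was -0.17 ± 0.13 in sham and -0.26 ± 0.13 after irradiation (adjusted p = 0.339). Their intervals after irradiation were 0.661 to 0.988-fold for Mcm3 and 0.686 to 1.01-fold for Pcna.

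Probes of 1 gene did not always give the same sign. The probe of Mcm3 with the second highest signal gave -0.23 in sham and -0.25 after irradiation, while the third, at processed signals of 50.1 to 132, gave 0.26 and 0.33. The second Mcm6 probe, at signals of 17.9 to 65.7, gave 0.44 and 0.64, against -0.03 and -0.28 with the main probe. The second Mcm7 probe read -6.65, -6.31, -6.50 and -6.58 in irradiated wild type and -4.96, -5.05, -4.77 and -5.19 in the irradiated labelled knockout.

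These 2 groups of the second Mcm7 probe did not overlap, and the difference of 1.51 ± 0.33 passed the test over all 39589 kept probes (limma adjusted p = 0.0221), against -0.04 ± 0.10 with the main probe. Its median processed signal was 25.2 in irradiated wild type, where 3 of 4 arrays were well above background, and 41.5 in the irradiated labelled knockout. The group mean of the 75th percentile signal was 2301 and 1333 in these groups. In sham mice the second Mcm7 probe differed by 0.17 ± 0.33. The irradiation difference of this probe was -0.43 ± 0.33 in wild type and 0.91 ± 0.33 in the labelled knockout (adjusted p = 0.671). The part of dim signal in this difference was not tested. The genotype call of the second Mcm7 probe was lost without any 1 of irradiated wild-type replicates 3 and 4 and irradiated labelled knockout replicates 1 and 3 (adjusted p from 0.0510 to 0.0719). That call was also lost with quantile scaling (0.0841), with the array median (0.0949) and without the 2 arrays of lowest signal (0.103).

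**Figure D4:**
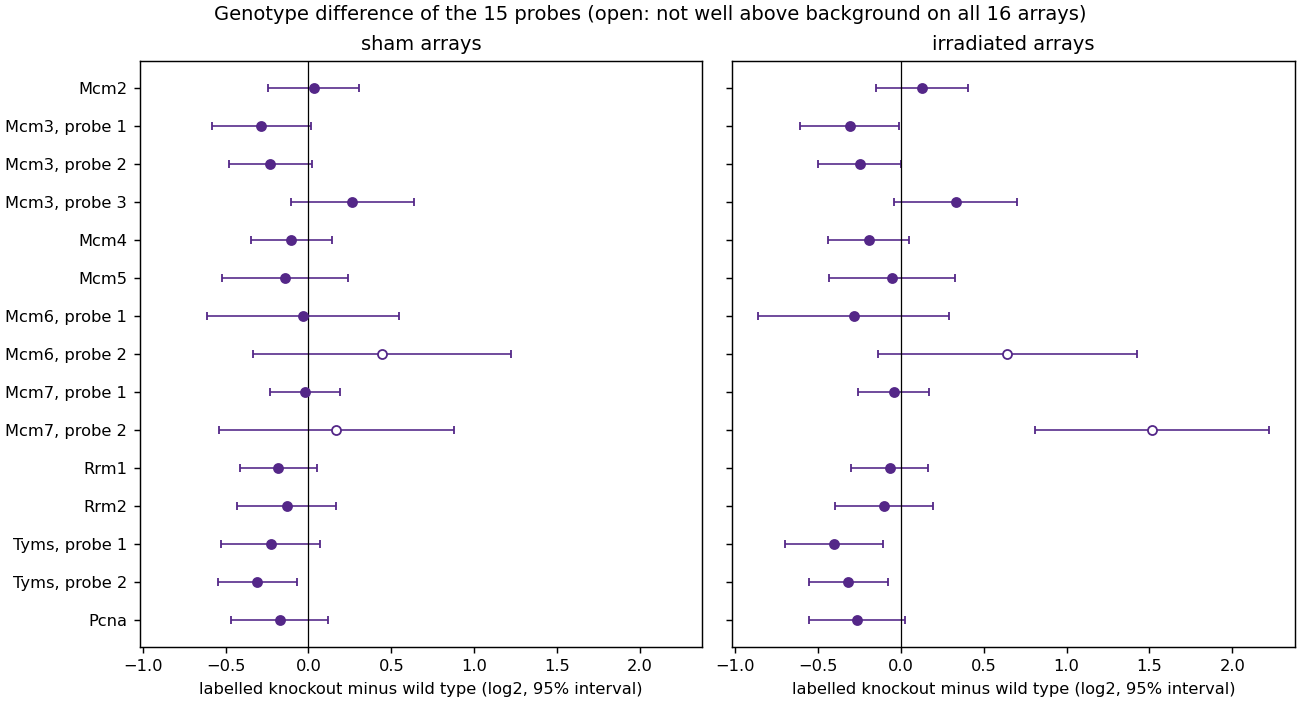
Labelled knockout minus wild type (x axis, log2) for each of the 15 probes in sham (left) and irradiated (right) mice, 4 arrays against 4. Points are limma estimates with 95% intervals, and probes of a gene are numbered by mean signal. Open points were not well above background on all 16 arrays, and the second Mcm7 probe stands at 1.51 on the right.

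Among the other replication genes, Chtf18, a subunit of an alternative clamp loader for Pcna, was the 1 gene of the 90 that was higher in the labelled knockout after irradiation by the test, as were 0.82% of all genes. It read -3.68 ± 0.06 in irradiated wild type and -3.17 ± 0.12 in the irradiated labelled knockout (SD, n = 4), without overlap. The difference was 0.51 ± 0.11 (limma adjusted p = 0.0347), against 0.28 ± 0.11 in sham (adjusted p = 0.544). The call was lost without irradiated wild-type replicate 2, 3 or 4 or any 1 of the 4 irradiated labelled knockout arrays (adjusted p from 0.0527 to 0.113), with quantile scaling (0.196) and with the array median (0.290). Of the 28 alternatives run, 16 kept the Chtf18 call and 12 lost it. Under normexp 17 of the 90 were called after irradiation, when 19.4% of all genes were. With no filter on dim probes 3 of 92 tested were called, when 7.85% of all genes were. With array weights, and without irradiated wild-type replicate 1, 3 of the 90 were called, when 2.56% and 2.7% of all genes were. In each case these were Chtf18 and, lower in the labelled knockout, Orc2 and Rfc1. The Chtf18 interaction was 0.24 ± 0.15, with an interval from -0.08 to 0.56. In sham, 61 of the 90 estimates (67.8%) were below 0 with a median of -0.09, and after irradiation 52 (57.8%) with a median of -0.06. Of all genes, 54.7% were below 0 in each, with medians of -0.02 and -0.03.

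Correlations between the 10 genes from mouse to mouse were mixed in sign. Over the 16 arrays the 15 pairs of helicase genes had Pearson correlations from -0.61 to 0.76 with a median of -0.06, and 7 of the 15 (46.7%) were above 0. Mcm3 and Mcm4 had the highest (0.76). Over all 45 pairs of the 10 genes the median was 0.21 and 30 (66.7%) were above 0, against 50.9% of all pairs of 17380 genes. These correlations describe 16 arrays that share slides, rows and a scaling, and no test was made of them.

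For each gene, the gene with the most similar profile over the 16 arrays was sought among 17379 genes. These were Tceal7 for Mcm6 (Pearson r = 0.98), Nae1 for Pcna (0.97), Dcp1b for Mcm3 (0.95), Nkain2 for Tyms (0.94) and Ftsj1 for Mcm4 (0.94). For the others they were Hsf4 for Mcm2 (0.92), Gpr22 for Rrm2 (0.91), Mpp1 for Mcm5 (0.91), Actl6a for Mcm7 (0.91) and Agmo for Rrm1 (0.91). None of the nearest genes was another of the 10.

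Some of the spread went with cell type markers. The level of each gene was compared with the mean level of 8 marker lists, 80 relations in all, with 100000 permutations and Benjamini-Hochberg adjustment, and 4 passed by both Pearson's r and Spearman's rho. How many of all genes tested relate as strongly to these lists was not determined. The relations are therefore not read as particular to the genes named. Mcm7 was lower where 8 astrocyte markers were higher (r = -0.857, permutation p = 6e-05, adjusted p = 0.0048; rho = -0.929, permutation p = 1e-05, the smallest they can give, adjusted p = 0.0008). Without the 2 arrays farthest from the median of the astrocyte markers r was -0.838, and within slides 1 and 2 it was -0.862 and -0.900 (8 arrays each).

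Mcm6 was lower where 8 endothelial markers were higher (r = -0.795, permutation p = 0.00014, adjusted p = 0.0056; rho = -0.847, permutation p = 0.00013, adjusted p = 0.0052). This r was -0.787 without the 2 farthest arrays and -0.757 and -0.836 within the slides. Mcm6 was also lower where 8 oligodendrocyte markers were higher (r = -0.759, permutation p = 0.00081, adjusted p = 0.0216; rho = -0.738, permutation p = 0.00173, adjusted p = 0.0346), with r of -0.674 without the 2 farthest and -0.749 and -0.809 within slides. Tyms was lower where 10 cortical neuron markers were higher (r = -0.727, permutation p = 0.0015, adjusted p = 0.03; rho = -0.747, permutation p = 0.00149, adjusted p = 0.0346). For Tyms r was -0.757 without the 2 farthest arrays and -0.540 and -0.518 within slides, and both measures differed between slides.

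The relations were also tested with the arrays permuted within their group, on values centred on the group mean, a test added after seeing the data. Of the 80 relations 2 passed, Mcm7 with the astrocyte markers (r = -0.905, permutation p = 3e-05, adjusted p = 0.0024) and Mcm6 with the endothelial markers (r = -0.792, permutation p = 0.00085, adjusted p = 0.034). Mcm6 with the oligodendrocyte markers (r = -0.786, adjusted permutation p = 0.074) and Tyms with the neuron markers (r = -0.467, adjusted permutation p = 0.334) did not pass.

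**Figure D5:**
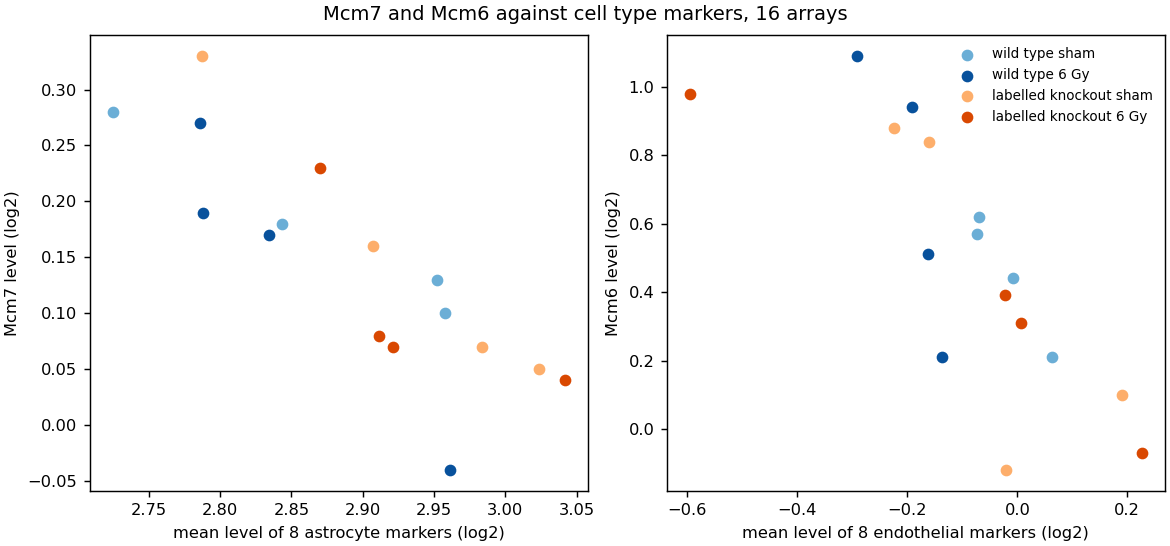
Left, the level of Mcm7 (y axis, log2) against the mean level of 8 astrocyte markers (x axis, log2). Right, Mcm6 against 8 endothelial markers, over 16 arrays coloured by group. Each point is 1 mouse, both relations slope downward (r = -0.857 and -0.795), and the 4 groups are mixed along both slopes.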

How the data were processed

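Cy3-labelled RNA was read on 1-colour arrays and extracted with Agilent Feature Extraction 12.0.3.1, per the file headers. The intensity used is the deposited processed signal, from which the program had taken background and a spatial trend, with no scaling across arrays, per the file headers. The deposited flags (well above background, saturated, outlier) have other units. The authors also deposited a score table of 42859 features (how it was made: not given in the sources used here), whose 16 columns share 1 set of quantiles with a median of -0.08, and it served as an alternative.

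Here, the value was log2 of that signal minus the array's 75th percentile. Control spots were left out, outlier spots set to missing and spots of a probe averaged. A probe was kept if well above background on at least 4 of 16 arrays with values on at least 12 (39589 probes). The brightest kept probe stood for a gene (17436 genes). Symbols came from RefSeq accessions, which named 32994 of the 56605 probes. A group-means model in limma 3.58.1 (R 4.3.3; 14.4 degrees of freedom) gave 6 contrasts, adjusted by Benjamini-Hochberg within each and called under 0.05. Intervals are 95% and unadjusted. P-values measure the spread between mice on the same slides. The number of arrays limits the precision. The fit was tested on simulated data.

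Genes named are the 10, every other replication gene called after irradiation or else the 3 with the smallest p per list, and the nearest profile of each of the 10; other names are marked. The members and lists were chosen with earlier results of these data known. Alternatives were normexp, quantile scaling, other filters, other probe rules, blocks, array weights, the scores and leaving out arrays. Normexp used the median spot signal, since the files as used here held no mean spot signal.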

Additional observations from a re-analysis of the deposited data

Results flagged for a closer look

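In 3 of 60 groups of 4 arrays, 1 array lay far from the other 3 by Dixon's test at 95%, and chance alone gives about 5% of groups. Mcm2 in irradiated labelled knockout replicate 2 read -2.50, below the other 3 arrays of its group. Tyms in irradiated labelled knockout replicate 1 read -3.11, below the other 3. Pcna in wild-type sham replicate 3 read 2.81, above the other 3.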

How the results depend on the processing

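None of the 10 genes was called under any alternative run, except Mcm7 after irradiation by genotype (0.74, adjusted p = 0.0345) when all kept probes of a gene were averaged, which makes 1 called gene and mixes its second probe in. The 10 genes' averaged irradiation differences ran from -0.18 to 0.18 (the deposited scores aside), with adjusted p of at least 0.890. Using the array median shifted the median of all genes to 0.12 in wild type after irradiation, to -0.23 between genotypes after irradiation and to -0.18 for the interaction, and the 10 genes' medians to 0.09, -0.35 and -0.19.

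Counts over all genes moved more. The 205 genes called by genotype after irradiation became 3382 with normexp, 1798 with no filter, 494 with averaged probes, 446 with array weights, 96 with quantile scaling, 81 with the scores, 18 in the fit of 2 groups, 17 with the array median, and 4 without the 2 arrays of lowest signal, replicates 3 and 4 of the irradiated labelled knockout; leaving out 1 array gave 17 (irradiated wild-type replicate 3) to 470 (replicate 1). The split of 143 higher and 62 lower became 2824 and 558 with normexp and 45 and 51 with quantile scaling. The 9 in sham became 2 in the fit of 2 groups, 192 with array weights and 5 to 14 without 1 array. The 21 after irradiation in the labelled knockout became 6 in that fit, 13 with the replicate block, 44 with the slide column as a block, 7 without those 2 arrays, 11 with the array median and 11 to 22 without 1 array. The 13 in wild type became 20 with the slide column, 24 with array weights and 10 to 16 without 1 array. The 53 averaged became 91, 87 and 26 with the slide column, array weights and the array median, and 38 to 47 without 1 array. The cause of these shifts was not tested. The array median and the fit without those 2 arrays were chosen after seeing the data. The replicate block changed no call of the 10 genes. Replicate numbers, which are also the slide columns, did not pair the arrays throughout: correlations of same-numbered sham and irradiated deviations were -0.60 to 0.20 in wild type but 0.05 to 0.52 in the labelled knockout, where 3 of 4 sham arrays correlated best with their own number.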
